A study of Mus musculus with 10 samples.

Results

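The phagocyte NADPH oxidase was followed through 5 of its subunit genes, Cybb, Cyba, Ncf1, Ncf4 and Rac2, in RNA-seq of sorted mouse granulocyte-macrophage progenitors (GMPs). The 5 genes were taken by name, and estimated reads and TPM (reads scaled to transcript length and to the library) were summed over all annotated transcripts of each gene. They are 5 of 51717 genes with a summed value and 5 of 12381 genes with enough reads to be tested. The cells were CD45.2+ GMPs from the bone marrow of chimeras made with donor marrow of male C57Bl6/N mice. The paper describes its mixed chimeras as irradiated recipients of such CD45.2 marrow together with competing wild-type marrow of another CD45 type. WT cells (n = 5 samples) carried ROSA26 CreER+/-, and recent KO cells (n = 5 samples) carried Mpc2fl/fl and ROSA26 CreER+/-. ROSA26 drives the tamoxifen-inducible CreER in all tissues, both groups received tamoxifen chow, and cells were taken at the end of its 2 wk, so that the Cre and the drug are shared by the groups and the genotypes differ in the floxed Mpc2. The groups also differ in pooling: each WT sample came from 1 mouse and each sample of recent KO cells pooled 2 mice. The sources used here do not give ages.

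The oxidase passes electrons from NADPH inside the cell across a membrane onto oxygen and so makes superoxide, with which neutrophils, monocytes and macrophages kill microbes. Its core is a membrane heterodimer of gp91phox (Cybb), which carries the flavin and the hemes, and p22phox (Cyba), which stabilizes it. In resting cells the organizer p47phox (Ncf1) and the phosphoinositide-binding p40phox (Ncf4) stay in the cytosol, and on activation they join the core together with the GTPase Rac2. Inherited loss of these subunits causes chronic granulomatous disease, and loss of Rac2 function a related neutrophil defect. GMPs are the progenitors of neutrophils and monocytes, and the complete oxidase is a feature of the mature cells.

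Libraries held 14133706 to 19745405 estimated reads in WT and 14033776 to 19658346 in recent KO. Mpc2, the floxed subunit of the mitochondrial pyruvate carrier, was first examined as a check of the labels. Its normalized CPM (counts scaled to the library) were 61.0, 111, 95.2, 117 and 60.9 in WT replicates 1 to 5 and 27.7, 17.1, 43.9, 37.0 and 35.0 in recent KO replicates 1 to 5. All recent KO samples lay below all WT samples, and the log2 fold change was -1.46 (SE 0.24, adjusted p = 0.0156 by edgeR's quasi-likelihood test). Of all genes tested, 0.331% passed an adjusted p of 0.05, with 26 (0.21%) lower and 15 (0.121%) higher in recent KO. The median log2 fold change of all genes was -0.0018.

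All 5 subunit mRNAs were present in WT GMPs, but at widely different levels per unit of transcript length. Cyba had the highest level, with 975 ± 80.1 TPM (SD, n = 5 samples), followed by Rac2 with 294 ± 10.04 TPM, Ncf4 with 113 ± 5.90 TPM and Ncf1 with 39.9 ± 2.47 TPM. Cybb, the catalytic subunit, had the lowest level, 6.38 ± 2.47 TPM (4.67 TPM by its leading transcript alone, the rest from short transcripts with few reads). The WT ranges of neighbours in this order did not touch, and in each of the 5 samples the order was the same. Cyba ranked 199th among all genes by mean TPM in WT, Rac2 540th and Cybb 5864th. Across a bulk sample, fewer cells that express a gene and less of its mRNA per cell cannot be told apart, so these are averages over the sorted population.

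The 2 subunits of the membrane heterodimer stood at opposite ends of this order. TPM of Cybb in WT replicates 1 to 5 were 4.32, 5.01, 5.61, 10.6 and 6.37, whereas TPM of Cyba were 975, 1061, 1028, 958 and 852. The highest Cybb value was thus far below the lowest Cyba value, and the ratio of the group means was 153. Within samples, the ratio of Cyba to Cybb was 169 ± 56.1 in WT and 187 ± 51.4 in recent KO (exact two-sided permutation p = 0.627, n = 5 per group). Among the cytosolic subunits, Ncf4 exceeded Ncf1, and the ratio of Ncf1 to Ncf4 was 0.353 ± 0.0237 in WT and 0.394 ± 0.0577 in recent KO (exact permutation p = 0.206, adjusted p = 0.321 over 3 ratios). Cyba is the shortest of the 5 mRNAs, and the effective length of its leading transcript, by which TPM divides, ranged from 402 to 443 bases in WT and from 420 to 463 in recent KO.

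Rac1, Hvcn1 and Cybc1, 3 further genes that act with the oxidase, were not among the 5 chosen genes and were read beside them. Rac1, the ubiquitous homolog of Rac2, had 224 ± 11.3 TPM, and Rac2 exceeded it in every sample, by 1.32 ± 0.0744 times in WT and 1.22 ± 0.133 times in recent KO (exact permutation p = 0.214, adjusted p = 0.321). That comparison leans on short transcripts: a processed transcript of 585 bases took most of the Rac1 TPM, and for Rac2 the leading transcript alone gave 224 TPM. In WT samples the protein-coding Rac1 transcripts of 4159 and 2325 bases had 26.9 to 34.5 and 45.6 to 57.1 TPM. The leading Rac2 transcript had 221 to 229 TPM, so the excess of Rac2 was larger with short transcripts set aside for both genes. Hvcn1, a voltage-gated proton channel that offsets the charge moved by the oxidase, had 19.8 ± 2.19 TPM, and Cybc1, a chaperone of the Cybb protein, had 19.4 ± 2.29 TPM. Ranges of Hvcn1 and Cybc1 overlapped, so their order was not resolved.

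Of 9 genes for the other oxidases of the family and their helpers (Nox1, Nox3, Nox4, Noxo1, Noxa1, Duox1, Duox2, Duoxa1 and Duoxa2), none had enough reads to be tested. The highest was Nox4, with 0.515 TPM in WT and 0.335 TPM in recent KO and at most 24 reads in a sample. Noxo1 followed with 0.357 and 0.296 TPM. Duox1 and Duox2 had no reads in any of the 10 libraries, where 3 reads, the limit a count of 0 allows, correspond to 0.153 to 0.215 CPM.

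**Figure D1:**
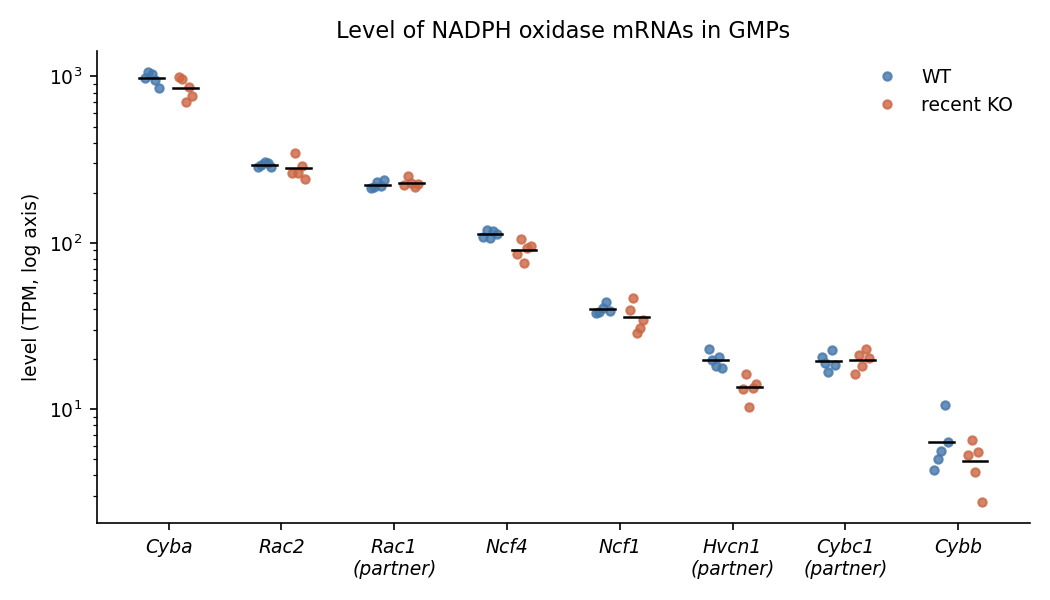
Level of the 5 subunit mRNAs and 3 partners in TPM, on a log axis, with 1 point per sample (WT blue, recent KO orange) and a black line at the mean of each group. Cyba lies near 975 TPM and Cybb near 6.38 TPM in WT, and the order of the 5 subunits is the same in recent KO.

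The genes lie on 4 chromosomes. In GENCODE M21 on GRCm38, all 5 are protein-coding: Cybb at X, 9435252 to 9487771 (reverse strand), Cyba at 8, 122424776 to 122432930 (reverse), Ncf1 at 5, 134220053 to 134229625 (reverse), Ncf4 at 15, 78244801 to 78262580 (forward) and Rac2 at 15, 78559167 to 78572783 (reverse). Most reads of each gene fell on 1 transcript. That of Cybb (4752 bases, 13 exons) took 90.0% to 99.6% of the gene's estimated reads over the 10 samples, that of Cyba (744 bases, 6 exons) 96.2% to 97.6%, that of Ncf1 (2721 bases, 11 exons) 93.9% to 97.5%, that of Ncf4 (1464 bases, 10 exons) 90.2% to 96.2% and that of Rac2 (3038 bases, 7 exons) 99.4% to 99.7%. As a share of TPM the range was wider where a short transcript took a few reads. For Cybb it ran from 38.3% in recent KO replicate 3 to 97.6% in recent KO replicate 5, and for Rac2 from 71.8% to 84.5%, where a transcript of 254 bases had 37.3 to 96.4 TPM. No share differed between the groups beyond the spread between samples (exact permutation test, adjusted p = 0.857 for each of the 5 genes, n = 5 per group).

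Sequence shared with other genes was searched for, since reads from it can be assigned to either gene. Of the leading transcripts of the 5 genes, that of Ncf1 alone shared 140 bases or more at 95% identity or above with another gene, 148 bases with the opposite-strand neighbour Gtf2ird2, which had a mean of 69.0 reads. Hvcn1 shared 1233 bases with the opposite-strand Tctn1, which had a mean of 73.2 reads, against 867 for Hvcn1. The counting was not stated to use strand.

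Promoter sequences, 250 bases before to 50 after the transcription start, were available in RefSeq's GRCm38.p6 annotation for 3 of the 5 genes and not for Ncf4 and Rac2. All that were available are shown. Whether their letters bear on the levels of the mRNAs or on their joint movement across samples was not tested. Capitals mark the core letters bound by the myeloid factor PU.1 (GAGGAA, or TTCCTC on the other strand) and the interferon response element bound by interferon regulatory factors (GAAA, any 2 bases and GAAA again, or on the other strand TTTC, any 2 bases and TTTC again, which may overlap other matches).
Cybb (chrX:9469275-9469574, reverse strand): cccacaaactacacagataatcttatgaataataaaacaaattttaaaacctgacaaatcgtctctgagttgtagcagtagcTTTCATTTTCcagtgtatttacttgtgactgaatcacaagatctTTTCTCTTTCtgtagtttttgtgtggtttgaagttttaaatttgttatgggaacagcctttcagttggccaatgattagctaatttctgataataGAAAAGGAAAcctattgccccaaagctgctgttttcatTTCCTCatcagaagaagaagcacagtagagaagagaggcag
Cyba (chr8:122432891-122433190, reverse strand): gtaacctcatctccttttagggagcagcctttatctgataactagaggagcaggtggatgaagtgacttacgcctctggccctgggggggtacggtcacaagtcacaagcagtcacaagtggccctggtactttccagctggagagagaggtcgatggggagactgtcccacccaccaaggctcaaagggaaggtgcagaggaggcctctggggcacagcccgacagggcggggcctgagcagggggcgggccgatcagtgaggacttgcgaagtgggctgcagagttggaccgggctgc
Ncf1 (chr5:134229576-134229875, reverse strand): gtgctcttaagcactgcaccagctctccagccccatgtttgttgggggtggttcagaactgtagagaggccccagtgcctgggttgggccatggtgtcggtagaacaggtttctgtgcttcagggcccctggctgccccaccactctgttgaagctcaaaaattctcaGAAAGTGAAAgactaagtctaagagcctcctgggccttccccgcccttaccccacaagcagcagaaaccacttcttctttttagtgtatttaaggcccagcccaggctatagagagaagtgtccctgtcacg
In the Cybb promoter, 3 matches to the interferon response element began at bases 83, 127 and 222 of the window, counted from its first base, and 1 match to the PU.1 core began at base 260, past the start. The Ncf1 promoter had 1 match to the interferon response element, at base 169, and the Cyba promoter had neither motif. Of all 32851 promoters of the same length, 28.3% held the PU.1 core and 3.44% the interferon response element on either strand. The core bound by C/EBP factors (TTGCNNAA, or TTNNGCAA on the other strand), held by 10.8% of promoters, was in none of the 3. A match describes letters only, and the window holds 300 bases, so enhancers were not examined.

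To ask whether the oxidase mRNAs differed after deletion of Mpc2, normalized CPM of the same 10 samples were compared. All 5 genes had a lower mean in recent KO, with log2 fold changes from -0.55 to -0.14. None of the 5 passed an adjusted p of 0.05 by edgeR's quasi-likelihood test or by limma, and 1 of 5, Ncf4, passed by DESeq2. Over all genes DESeq2 called 1.22% and limma 0.242%, against 0.331% by edgeR. At an unadjusted p of 0.05, 1 of 5 passed, against 10.2% of all genes tested (5.35% lower and 4.89% higher in recent KO). In 1 of 5 the groups did not overlap, against 2.43% of all genes (1.32% lower and 1.11% higher in every recent KO sample). A log2 fold change below 0 is common, since 50.4% of all genes had one.

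Ncf4, whose product binds phosphoinositides on phagosome membranes, had the clearest difference. Its normalized CPM were 130, 140, 140, 171 and 131 in WT replicates 1 to 5 and 118, 119, 93.1, 104 and 106 in recent KO replicates 1 to 5. Each recent KO sample lay below each WT sample. The mean was 142 ± 16.8 in WT and 108 ± 10.9 in recent KO (SD, n = 5). The log2 fold change was -0.40 (SE 0.09, 95% interval -0.58 to -0.21), with an adjusted p of 0.0897 in edgeR's fit, and the gene ranked 71st of all by its unadjusted p. The call depended on the method: with DESeq2 on the same genes the adjusted p was 0.00626, and with edgeR but no filter on low counts 0.00605, while limma on log2(TPM + 1) gave 0.271. Leaving out WT replicate 4, its highest value, gave -0.32 (adjusted p = 0.170 by edgeR), and leaving out recent KO replicate 2 gave -0.43 (adjusted p = 0.0493).

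Cybb had the largest fold difference and the largest spread. Normalized CPM were 22.7, 25.8, 23.4, 45.5 and 24.6 in WT replicates 1 to 5 and 26.6, 29.7, 9.77, 16.3 and 14.9 in recent KO replicates 1 to 5. Recent KO replicates 1 and 2 lay above 4 of the 5 WT samples, and recent KO replicates 3, 4 and 5 lay below all of them. The mean was 28.4 ± 9.65 in WT and 19.5 ± 8.38 in recent KO, with a log2 fold change of -0.55 (SE 0.27, 95% interval -1.14 to 0.038, adjusted p = 0.518 by edgeR). The value rested partly on single libraries: it was -0.32 without WT replicate 4 (adjusted p = 0.809) and -0.37 without recent KO replicate 3 (adjusted p = 0.788). Depth was not limiting, with 200 to 586 estimated reads per sample.

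The spread of Cybb in WT rested on 1 library. Its coefficient of variation was 34.0% in WT, but 5.79% without WT replicate 4, and 43.0% in recent KO. Over 1399 genes with a mean of 300 to 500 reads, near that of Cybb, the median was 9.60% in WT, 8.91% without WT replicate 4 and 10.2% in recent KO. Ncf4 had 11.8% in WT (4.11% without WT replicate 4) and 10.1% in recent KO. Ncf1 had 12.3% (8.55% without WT replicate 4) and 22.0%, and Cyba 13.4% (15.3%) and 18.3%. Rac2 was the steadiest of the 5 in recent KO, with 7.14% (7.30%) and 8.14%. Over 5660 genes with a mean of at least 300 reads, the medians were 7.74% (7.07%) and 9.09%.

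Cyba, the partner of Cybb in the membrane, had normalized CPM of 489, 618, 634, 593 and 472 in WT replicates 1 to 5 and 626, 493, 393, 482 and 429 in recent KO replicates 1 to 5. The groups overlapped, and recent KO replicate 1 had the second highest value of all 10 samples. The mean was 561 ± 75.4 in WT and 485 ± 88.9 in recent KO, a log2 fold change of -0.21 (SE 0.12, 95% interval -0.47 to 0.049, adjusted p = 0.594 by edgeR).

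Ncf1, the organizer whose phosphorylation starts assembly, had normalized CPM of 109, 122, 133, 149 and 116 in WT replicates 1 to 5 and 130, 136, 82.9, 90.8 and 101 in recent KO replicates 1 to 5. As for Cybb, recent KO replicates 1 and 2 lay within the WT range and replicates 3, 4 and 5 below it. The mean was 126 ± 15.5 in WT and 108 ± 23.8 in recent KO, a log2 fold change of -0.22 (SE 0.13, 95% interval -0.50 to 0.064, adjusted p = 0.617 by edgeR).

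Rac2, the GTPase that switches the assembled complex on, had the highest read counts of the 5. Normalized CPM were 757, 810, 887, 869 and 768 in WT replicates 1 to 5 and 730, 842, 693, 745 and 698 in recent KO replicates 1 to 5. Only recent KO replicate 2 reached the WT range, in which it exceeded 3 WT samples. The mean was 818 ± 58.4 in WT and 742 ± 60.4 in recent KO, a log2 fold change of -0.14 (SE 0.07, 95% interval -0.30 to 0.016, adjusted p = 0.535 by edgeR). For Cybb, Cyba, Ncf1 and Rac2 the intervals include 0 and also include lower levels in recent KO, of 0.455, 0.721, 0.706 and 0.813 times WT at their lower ends, so these samples do not tell a difference of that size from none.

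**Figure D2:**
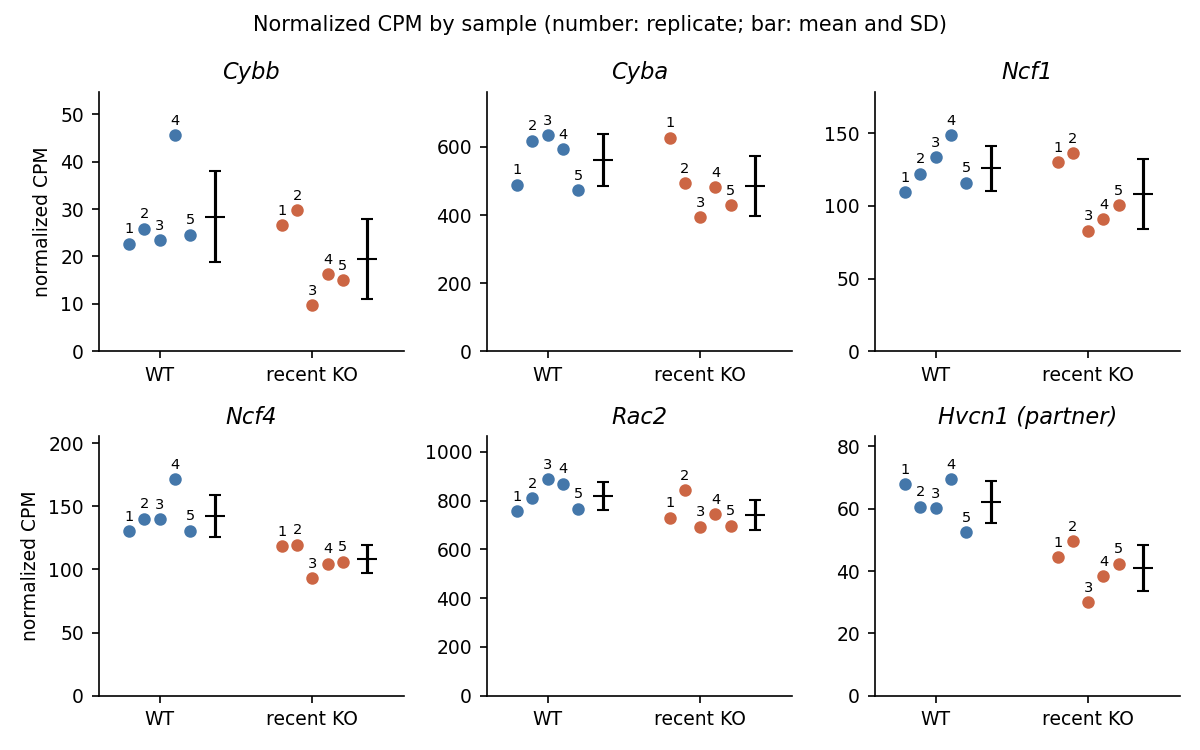
Normalized CPM of the 5 subunits and of Hvcn1 in each sample, with the replicate number above each point and the mean and SD of each group as a black bar. For Ncf4 and Hvcn1 all recent KO samples lie below all WT samples, and for Cybb WT replicate 4 stands alone at 45.5.

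Of the 3 partners, none passed the adjusted threshold in edgeR, and 1 of 3 passed an unadjusted p of 0.05, against 10.2% of all genes tested. Hvcn1, the proton channel, had normalized CPM of 67.8, 60.7, 60.3, 69.4 and 52.5 in WT replicates 1 to 5 and 44.4, 49.5, 30.0, 38.3 and 42.3 in recent KO replicates 1 to 5. The groups did not overlap, as for Ncf4 and for 1.32% of all genes tested in this direction, and the difference was larger than that of Ncf4. The log2 fold change was -0.60 (SE 0.12, 95% interval -0.86 to -0.35, adjusted p = 0.0540 by edgeR), and 7 of 22 alternative fits passed the threshold, among them DESeq2 with an adjusted p of 4.01e-04. Rac1 (log2 fold change -0.06, adjusted p = 0.807) and Cybc1 (-0.08, adjusted p = 0.851) overlapped between the groups. All 3 partners had a value below 0 with each scaling tried except library size alone, under which 2 of 3 did.

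**Figure D3:**
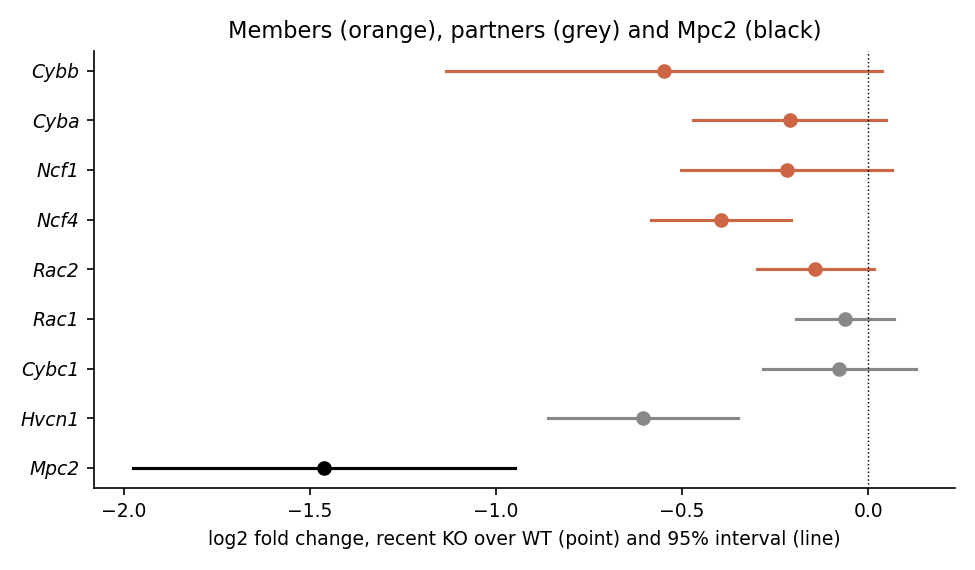
Recent KO over WT as a log2 fold change (points) with its 95% interval from edgeR's fit (lines) for the 5 subunits (orange), the 3 partners (grey) and Mpc2 (black). The intervals of Ncf4, Hvcn1 and Mpc2 lie wholly below 0, and those of the other 6 genes cross it.

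The 5 mRNAs moved together from sample to sample. In the 10 pairs among them, Pearson's r of log2(CPM + 0.5) over the 10 samples ranged from 0.681 (Cyba and Rac2) to 0.935 (Cybb and Ncf1), and all 10 had an adjusted p under 0.05 (permutation test with 100000 resamples). By Spearman's rank correlation 9 of 10 did, since Cyba and Ncf4 missed it (0.624, adjusted permutation p = 0.0611). Without the 2 samples farthest from the median of the first gene, r ranged from 0.554 to 0.880. For Cybb and Ncf1, Spearman's rank correlation was 0.915 (adjusted permutation p = 0.00520), and r was 0.917 after centring each group on its own mean (adjusted permutation p = 0.00157). Centred within groups, 8 of the 10 pairs passed. The number of pairs rested on 1 library, since 5 of 10 passed without recent KO replicate 3.

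Such correlations are not the rule among these samples. For each of the 5 genes the median r with the other 4 was between 0.729 and 0.826, whereas its median r with 9744 other tested genes of at least 50 mean reads was between 0.00998 and 0.0160. Between 1.58% and 2.22% of those genes had an r at or above that median. Genes share libraries and their composition, so these shares describe how common such values are and are not a test.

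Among genes with at least 50 mean reads, the 3 most like Cybb were Hp, which encodes haptoglobin (r = 0.989), Plpp5, a lipid phosphatase (0.975), and Dgat2, a triglyceride-synthesis enzyme (0.972). Most like Ncf1 were Fkbp1b (0.975), Mcemp1 (0.974) and Nrg1 (0.969). Most like Ncf4 were P4hb, a protein disulfide isomerase (0.974), Cldn15 (0.970) and Prtn3, the granule protease proteinase 3 (0.957). Cyba was most like Etfb, a subunit of the electron transfer flavoprotein (0.960), Prdx5, a peroxiredoxin (0.946), and Rgcc (0.934). Rac2 was most like Csf2ra, the alpha chain of the GM-CSF receptor (0.926), Arpc1b, a subunit of the actin-nucleating complex (0.924), and Ift172 (0.917). These values are descriptions over 10 samples. No gene was on more than 1 of the 5 lists.

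**Figure D4:**
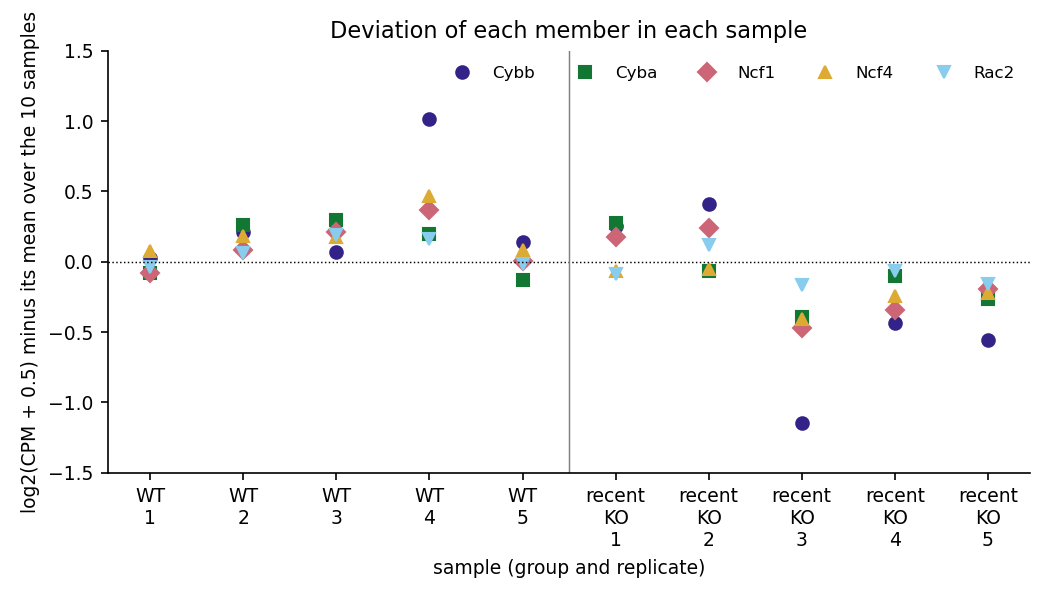
Log2(CPM + 0.5) of each of the 5 subunits minus its own mean over the 10 samples, with samples on the horizontal axis and WT left of the grey line. All 5 lie above 0 in WT replicates 2, 3 and 4 and below 0 in recent KO replicates 3, 4 and 5, with Cybb the most extreme in WT replicate 4 and recent KO replicate 3.

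Markers of cell types were read in the same samples. Of all genes tested, 5.35% were lower and 4.89% higher in recent KO at an unadjusted p of 0.05, the shares beside which the marker counts stand. All 10 listed markers of GMPs had enough reads to be tested. So had all 10 neutrophil and all 10 monocyte markers, so that being tested does not check the GMP label. Among the GMP markers the granule protease Elane had the highest TPM, with a mean of 24646 CPM in WT against 15884 in recent KO (log2 fold change -0.63, adjusted p = 0.360 by edgeR). The summed level of the GMP markers was 62294 to 81087 TPM in WT and 36308 to 67370 TPM in recent KO. The granule genes Elane, Mpo, Ctsg and Prtn3, with WT means of 27252, 22299, 11805 and 9185 TPM, made up most of it. Of the 10 markers, 7 had a log2 fold change below 0 (6 with library size alone). The 3 above 0 were Cd34 (0.25), Cd27 (0.22) and Kit (0.08), named after their values were seen, as was Ctsg. At an unadjusted p of 0.05, 6 of the 10 markers passed, all lower in recent KO. None passed the adjusted threshold by edgeR or limma, and Fcgr3 and Mpo passed by DESeq2. Recent KO replicate 3, lowest in CPM for Cybb, Cyba, Ncf1, Ncf4 and Rac2, had the lowest sum, and WT replicate 4, highest for Cybb, Ncf1 and Ncf4, the highest. Monocyte markers, led by Ly6c2, summed to 3912 to 5209 TPM in WT and 1213 to 5520 TPM in recent KO, again with recent KO replicate 3 lowest and replicates 4 and 5 (2762 and 2903 TPM) next. Ly6c2, with means of 4541 TPM in WT and 3119 TPM in recent KO, made up most of that sum. Of the 10 monocyte markers, 9 had a log2 fold change below 0, with a median of -0.49. At an unadjusted p of 0.05, 6 passed, all lower in recent KO. None passed the adjusted threshold by edgeR or limma, and 1, Cx3cr1, passed by DESeq2.

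Of 7 tested erythroid markers, 6 had a log2 fold change above 0, 4 of them at an unadjusted p under 0.05. The other, Tfrc (-0.48), named after its values were seen, was lower in recent KO, also at an unadjusted p under 0.05. None passed the adjusted threshold by edgeR, DESeq2 or limma. The sum of the erythroid markers was 23.2 to 93.4 TPM in WT, 51.5 and 75.3 TPM in recent KO replicates 1 and 2, and 485, 322 and 284 TPM in recent KO replicates 3, 4 and 5. The hemoglobin gene Hba-a2 led them, while Alas2 and Slc4a1 had too few reads to be tested. Of 9 tested macrophage markers, 8 had a log2 fold change above 0 (5 at an unadjusted p under 0.05). The complement genes C1qa (log2 fold change 1.25, adjusted p = 0.0406), C1qb (1.35, adjusted p = 0.0160) and C1qc (1.59, adjusted p = 0.0383) rose in recent KO by edgeR. The calls depended on the method: by limma C1qb alone passed, and by DESeq2 these 3 genes, Cd5l and Hmox1 passed. The macrophage list summed to 12.7 to 26.6 TPM in WT and 30.3 to 59.9 TPM in recent KO. Neutrophil markers had 8 of 10 values above 0 (6 at an unadjusted p under 0.05, none past the adjusted threshold by edgeR, DESeq2 or limma), although the most abundant, S100a8, was at -0.08, and their sums overlapped, from 549 to 1531 TPM in WT and from 485 to 2633 TPM in recent KO.

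Stem and multipotent progenitor markers, led by Ly6a, summed to 19.8 to 26.1 TPM in WT and 27.7 to 35.1 TPM in recent KO, without overlap, and 7 of 7 tested had a value above 0 (3 at an unadjusted p under 0.05, none past the adjusted threshold by edgeR and 1, Flt3, by DESeq2). Basophil, mast cell and eosinophil markers, led by Mcpt8 (log2 fold change 0.53, adjusted p = 0.112 by edgeR, called by DESeq2), had 4 of 8 above 0 and 4 below. At an unadjusted p of 0.05 by edgeR, 2 were higher and 3 lower in recent KO. The 3 lower, named after their values were seen, were Epx (-1.72), Prg2 (-1.54) and Prss34 (-1.35). Only 3 of 8 B cell markers, led by Cd79b, and 2 of 8 T and NK cell markers, led by Nkg7, could be tested, while Ebf1 and Pax5 had at most 3 reads in any library and Cd3e at most 4. The part that these differences in markers have in the values of the oxidase genes was not tested.

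**Figure D5:**
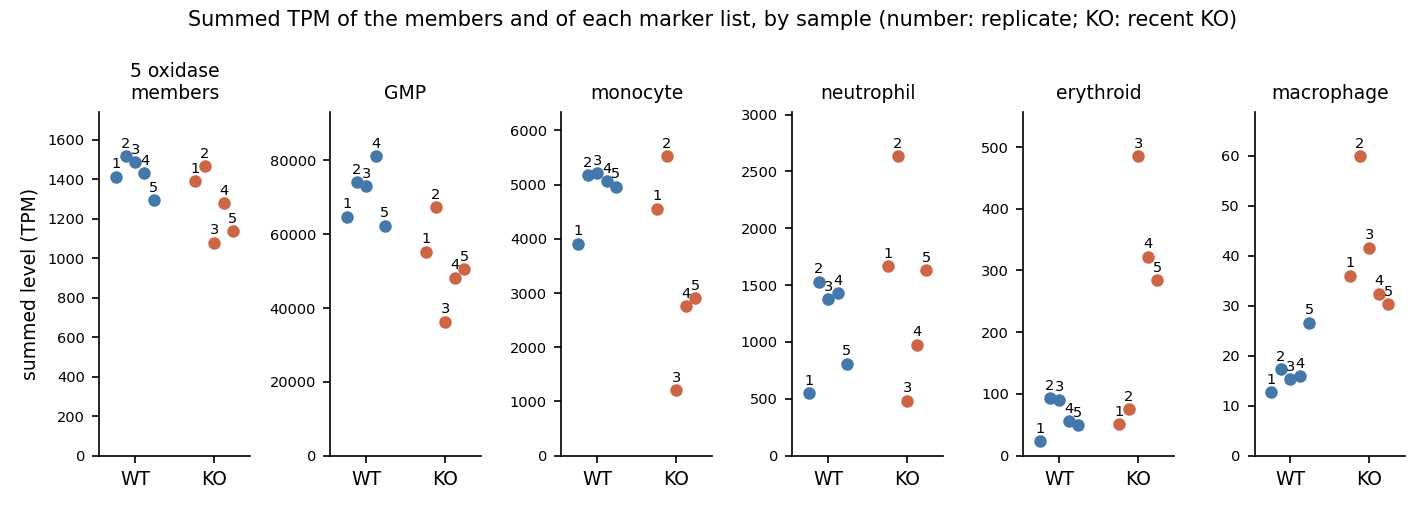
Summed TPM of the 5 subunits and of 5 marker lists in each sample, with the replicate number above each point (WT blue, recent KO orange). Recent KO replicate 3 is lowest for the subunits, GMP and monocyte markers and highest for erythroid markers. The GMP sum is mostly of granule genes and the monocyte sum mostly of Ly6c2.

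The machinery around the oxidase was read from lists of its regulators. Beside the counts of these lists, 5.35% of all genes tested were lower and 4.89% higher in recent KO at an unadjusted p of 0.05. Groups did not overlap in 1.32% (lower) and 1.11% (higher) of all genes tested. Of 11 Rac regulators, 5 had a log2 fold change above 0 and 6 below (4 with library size alone), and the most abundant, the GDP-dissociation inhibitors Arhgdib (4579 and 3794 CPM in WT and recent KO, log2 fold change -0.27, adjusted p = 0.450 by edgeR) and Arhgdia (-0.09, adjusted p = 0.787), did not pass. Of 14 kinases and lipid enzymes that activate the complex, 8 lay above 0 and 6 below, with Akt1 at 0.04 (adjusted p = 0.911) and Prkcd, which phosphorylates the organizer subunit, at -0.16 (adjusted p = 0.573). By edgeR, DESeq2 and limma neither list had a gene past the adjusted threshold, at an unadjusted p of 0.05 each had 1 by edgeR, and their medians of -0.03 and 0.01 were close to that of all genes.

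Receptors that prime or trigger the oxidase lay mostly below 0, with 8 of 9 tested and a median log2 fold change of -0.16 (7 of 9 with library size alone). None passed the adjusted threshold by edgeR or limma, and 3 of 9 passed an unadjusted p of 0.05. By DESeq2 1 passed, Fcgr3, which is also counted among the GMP markers above. The most abundant was Fcgr3, a low-affinity IgG receptor bound by the CD16/32 antibody with which GMPs are gated, with 404 CPM in WT and 258 in recent KO, no overlap between the groups and a log2 fold change of -0.65 (SE 0.15, adjusted p = 0.107). Ltb4r1, the leukotriene B4 receptor, had -0.38 (adjusted p = 0.552). The formyl peptide receptors Fpr1 and Fpr2 and the complement receptor C5ar1 had too few reads to be tested, with at most 26 in a library.

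Of 12 transcription factors known to act on oxidase genes, 9 lay below 0, with a median log2 fold change of -0.14 (8 of 12 with library size alone). The list was not divided into activators and repressors. None passed the adjusted threshold by edgeR, DESeq2 or limma. At an unadjusted p of 0.05, 5 of 12 passed, all lower in recent KO, against 5.35% of all genes tested. Spi1, which encodes PU.1, had 369 CPM in WT and 311 in recent KO (log2 fold change -0.25, SE 0.08, adjusted p = 0.270), and Cebpb had -0.41 (SE 0.17, adjusted p = 0.443). The other 3, named after their values were seen, were Irf8 (-0.55, adjusted p = 0.302), Cebpe (-0.47, adjusted p = 0.305) and Gfi1 (-0.22, adjusted p = 0.458). Binding of these factors at the promoters printed above was not measured.

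Genes that supply NADPH, the electron donor, had 2 of 7 tested above 0 and 5 below (3 with library size alone) and a median of -0.07 (0.0037 with library size alone). None passed the adjusted threshold by edgeR, DESeq2 or limma, and 2 of 7, Pgd (-0.28) and Idh1 (-0.22), named after their values were seen, passed an unadjusted p of 0.05. The most abundant were Pgls of the pentose phosphate pathway (log2 fold change -0.03, adjusted p = 0.948 by edgeR) and mitochondrial Idh2 (0.02, adjusted p = 0.951). Of 9 genes that use or remove the oxidants, 5 lay above 0 and 4 below, none past the adjusted threshold by edgeR or limma. At an unadjusted p of 0.05, 5 passed, and 2, Mpo and Gpx1, passed the adjusted threshold by DESeq2. Mpo is also counted among the GMP markers above. Mpo, the peroxidase that turns hydrogen peroxide into hypochlorous acid, had 61005 CPM in WT and 42407 in recent KO (log2 fold change -0.52, SE 0.17, adjusted p = 0.272), and Gpx1, a glutathione peroxidase, had -0.30 (SE 0.11, adjusted p = 0.331) without overlap between the groups. Prdx1, a peroxiredoxin named after its values were seen, also did not overlap, in the other direction (log2 fold change 0.18, SE 0.06, adjusted p = 0.341).

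Ncf4 and Rac2 are neighbours on chromosome 15, with 297 kb between them. Of 16 annotated genes lying between, 6 could be tested, and they were named after their values were seen. Csf2rb, the shared beta chain of the GM-CSF receptor, had 48.3 ± 9.33 CPM in WT and 49.7 ± 3.85 in recent KO (log2 fold change 0.04, adjusted p = 0.940 by edgeR). Csf2rb2 (0.08), Kctd17 (0.10), Tst (-0.22) and C1qtnf6 (-0.11) overlapped between the groups. Il2rb, at under 1 CPM in both groups, had means of 0.237 ± 0.212 and 0.908 ± 0.284 CPM, without overlap (log2 fold change 1.87, adjusted p = 0.211 by edgeR). In that direction 1.11% of all genes tested did not overlap.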

How the data were processed

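RNA of sorted GMPs (5 WT and 5 recent KO samples) was amplified with a SMARTseq V4 kit and sequenced as paired ends. The authors quantified transcripts with Salmon 1.5.1 on GENCODE M27, and the deposited files give an estimated count (fractional reads) and a TPM value for each transcript of each sample. A further deposited table, with the authors' own DESeq2 comparison (fold changes and p-values), was not used. Transcript IDs were matched to GENCODE M21 (GRCm38): 137161 of 140789 matched, and the unmatched held 0.348% to 0.390% of reads. Estimated counts and TPM were summed per gene, and estimated counts were then rounded.

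edgeR 4.0.16 (TMM, filterByExpr with a minimum count of 10, quasi-likelihood test, Benjamini-Hochberg adjustment over 12381 genes) compared recent KO with WT, and its normalized CPM are printed. 95% intervals used the t quantile of that fit. Ratios and transcript shares were compared with two-sided exact permutation tests, whose smallest p for 5 against 5 is 0.00794. Alternatives were DESeq2 1.42.0, limma 3.58.1 on log2(TPM + 1) and log2(TPM + 0.1), other scalings and filters, a transcript length offset, a replicate block and each sample left out. The spread without WT replicate 4 and among genes of like depth was added after seeing the data. The statistics were checked on simulated counts. The replicates are separate mice or pools, and p-values measure the spread between these samples. Counting limits cover counting error only, since reads carried no molecular identifiers.

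The oxidase genes, partners and gene lists were chosen with earlier results of these data known, and some genes are not reported here. Named were the 5 genes, Mpc2, 3 partners, the 2 most abundant genes of each pathway list and the most abundant of each marker list (by mean TPM over the 10 samples), all list genes past the adjusted threshold, and the 3 genes most correlated with each oxidase gene. Others are said to be named after their values were seen, including those named for a DESeq2 call or for too few reads. Promoters came from RefSeq (GRCm38.p6), and shared sequence was searched with BLAST 2.17.0.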

Additional observations from a re-analysis of the deposited data

Results flagged for a closer look

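In 18 groups of 5 samples (9 genes in WT and in recent KO), a sample whose gap to its neighbour exceeded Dixon's 95% critical value was found in 2, where chance gives about 1 in 20 groups. Both were WT replicate 4. Cybb was 45.5 CPM there, against 22.7 to 25.8 CPM in the other 4 WT samples. Ncf4 was 171 CPM there, against 130 to 140 CPM. Without this sample the log2 fold change was -0.32 for Cybb (adjusted p = 0.809 by edgeR) and -0.32 for Ncf4 (adjusted p = 0.170). WT replicate 4 also had the highest sum of GMP markers, 81087 TPM, a sum mostly of granule genes. Whether that has a part in its Cybb and Ncf4 values was not tested.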

How the results depend on the processing

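The 5 oxidase genes had a log2 fold change below 0 in all 110 alternative fits, and 107 kept their side of the threshold. The 3 others were Ncf4 with no filter on low counts (-0.40, adjusted p = 0.00605), DESeq2 (-0.39, 0.00626) and without recent KO replicate 2 (-0.43, 0.0493), with -0.43 to -0.32 over samples left out. The number of genes changed, 41, was 206 with no filter, 151 with DESeq2, 25 with limma and a pseudocount of 1 TPM, 24 with one of 0.1 TPM, 13 with limma and no filter, and 25 to 91 with each sample left out (26 without WT replicate 3, 91 without recent KO replicate 2, 25 without recent KO replicate 3 or 4). It was 71 without the 2 libraries of shortest fragments, an alternative chosen after seeing the data, as were the centred and left-out correlations. Mpc2 missed the threshold with the length offset (-1.40, adjusted p = 0.0742), limma (-1.35, 0.130 and -1.38, 0.138; with no filter -1.35, 0.411) and without recent KO replicate 1 (-1.41, 0.05002), with -1.60 to -1.31 over samples left out. The causes were not tested.

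Replicate numbers did not pair the samples: deviations of same-numbered samples correlated at -0.177 to 0.0482, and none correlated best with its own number. With a replicate block 20 genes changed, Mpc2 was -1.46 (adjusted p = 0.0577), Ncf4 -0.39 (0.236), and no call of an oxidase gene changed.

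Of the differences without a call, the Cyba to Cybb ratio and 3 of the 5 transcript shares turned sign with single samples. The Cyba to Cybb ratio difference (18.0) was -1.55 when WT replicate 4 and -3.80 when recent KO replicate 5 was left out (range -3.80 to 32.2 over samples left out), and 61.9 by the leading transcripts alone (adjusted p = 0.286, exact permutation test). Leading transcript shares, in percentage points, ranged from -12.2 to 2.63 for Cybb (2.63 without recent KO replicate 3), -2.68 to 0.957 for Ncf4 (0.249, 0.957, 0.249 and 0.668 leaving out WT replicate 1, WT replicate 4, recent KO replicate 4 and recent KO replicate 5) and -1.42 to 1.75 for Rac2 (-1.42 without recent KO replicate 5). By the leading transcript alone, WT levels were 938 TPM for Cyba, 224 TPM for Rac2, 86.7 TPM for Ncf4, 37.8 TPM for Ncf1 and 4.67 TPM for Cybb. Correlated pairs numbered 5 to 10 over samples left out, with 5 without recent KO replicate 3. Depth limits the other oxidase genes, Nox4 included, and no subunit.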
